A study of Mus musculus with 8 samples.

Results

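The 9 genes described here, *Mbp*, *Mog*, *Mag*, *Mobp*, *Cnp*, *Mal*, *Cldn11*, *Opalin*, and *Ugt8a*, code for proteins of the myelin sheath or, in the case of *Ugt8a*, for an enzyme that makes its main lipid. They are given by name, with no limit on their values, and all 9 were found among the 25239 gene symbols of the deposited table. RNA came from the corpus callosum, the tract of myelinated axons that joins the cerebral hemispheres, of male mice aged 8 to 12 weeks whose strain is labelled C57BL/6. In bilateral common carotid artery stenosis (BCAS), microcoils are placed on both common carotid arteries and chronically lower the blood flow of the brain. Sham-operated mice received no coils. One set of 4 libraries is labelled WT (wild type) and the other TRPA1-KO (Trpa1 -/-, a deletion carried in all cells of the body, backcrossed to C57BL/6J), where TRPA1 is a cation channel that the study examines in astrocytes. Each label has 1 sham library of day 14 and 1 BCAS library each of days 7, 10, and 14. Sham was therefore taken as 1 group of 2 libraries over both labels, and BCAS as 3 libraries per label, so that the spread within a BCAS group mixes day and sample. Days 7 and 10 have no sham library of their own day. In every comparison with sham, operation and day are therefore partly mixed and cannot be told apart for these days.

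*Trpa1* itself goes against the labels. It had 1 read in the sham library labelled WT and 0 reads in each of the 3 BCAS libraries labelled WT, but 10 reads in the sham library labelled TRPA1-KO and 11, 3, and 7 reads in the BCAS libraries labelled TRPA1-KO on days 7, 10, and 14. Counts per gene do not show whether these reads lie in the deleted part of the gene. Every direction between genotypes below is thus a direction between libraries labelled WT and libraries labelled TRPA1-KO. The libraries held 7896071 to 12952093 reads on genes, and the deposited unit is CPM, counts scaled to the effective library size, from which whole reads could be recovered. All 10 markers of mature oligodendrocytes were present in each library, with a summed level of 12630 to 16891 CPM, while those of Schwann cells, the myelinating cells of peripheral nerves, summed to 1.28 to 2.39 CPM with *Pmp2* at 0 in at least 1 library.

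Myelin is the membrane that oligodendrocytes wrap around axons of the central nervous system. Its compact layers are held together on the inner face of the membrane by myelin basic protein and are rich in the lipid galactosylceramide, whereas other proteins sit in the channels and edges that stay uncompacted, on the layer facing the axon, or on the outermost surface. The transcription factors SOX10, MYRF, and OLIG2 are known drivers of these genes in oligodendrocytes. In whole tissue, fewer oligodendrocytes and less RNA per oligodendrocyte cannot be told apart.

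The promoters of *Mog*, *Mal*, and *Opalin* are shown because *Mog* and *Mal* had the lowest and next lowest fitted values against sham in the libraries labelled TRPA1-KO, and *Opalin* the opposite order of labels to *Mog*. Each run covers 250 bases before to 50 bases after the transcription start, read 5′ to 3′ on the strand of the gene, from RefSeq (GRCm38.p6). Capitals mark matches on either strand to CTGGNAC, described for MYRF, ACAAAG, a core that SOX factors bind, and CAGCTG, one of the E-boxes that factors of the OLIG family can bind. The windows are chr17:37023349-37023648 (minus strand) for *Mog*, chr2:127656646-127656945 (minus strand) for *Mal*, and chr19:41077064-41077363 (minus strand) for *Opalin*.
Mog: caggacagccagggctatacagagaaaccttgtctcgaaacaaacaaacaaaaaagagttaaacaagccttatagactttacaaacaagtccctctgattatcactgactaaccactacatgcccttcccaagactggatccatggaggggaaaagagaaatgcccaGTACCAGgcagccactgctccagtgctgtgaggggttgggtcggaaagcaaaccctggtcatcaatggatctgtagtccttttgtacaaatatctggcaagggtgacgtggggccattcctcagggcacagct
Mal: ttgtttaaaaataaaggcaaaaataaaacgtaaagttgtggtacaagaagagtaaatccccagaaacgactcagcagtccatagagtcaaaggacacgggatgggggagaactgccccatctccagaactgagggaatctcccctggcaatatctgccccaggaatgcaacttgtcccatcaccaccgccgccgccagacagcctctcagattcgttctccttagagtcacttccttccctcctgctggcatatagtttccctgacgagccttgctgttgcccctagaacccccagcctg
Opalin: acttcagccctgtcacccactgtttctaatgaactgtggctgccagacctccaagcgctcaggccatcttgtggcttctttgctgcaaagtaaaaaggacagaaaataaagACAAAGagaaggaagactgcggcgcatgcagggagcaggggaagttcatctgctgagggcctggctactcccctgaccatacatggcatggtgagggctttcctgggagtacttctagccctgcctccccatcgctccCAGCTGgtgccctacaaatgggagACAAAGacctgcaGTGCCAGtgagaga

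The *Mog* window held 1 CTGGNAC, whose first base lay 83 bases before the start. The *Mal* window held none of these strings, which says only that these letters are not in this window. *Opalin* held 1 CTGGNAC, 2 ACAAAG, and 1 CAGCTG. Promoters were found for 8 of the 9 genes, with *Mbp* not among them. Of these 8, CTGGNAC was found in 4 (*Mog*, *Mag*, *Cnp*, and *Opalin*), ACAAAG in 4 (*Mag*, *Mobp*, *Cnp*, and *Opalin*), and CAGCTG in 1 (*Opalin*). Counted by promoter, the strings were in 5, 5, and 1 of the 10 promoters of these 8 genes, respectively. *Mag* has 3 of the 10, some of which overlap and share matches. Among all 32544 promoters of the same length, the shares with a match were 19.2%, 18.7%, and 16.4%, respectively. No match of one string overlapped a match of another in the 3 windows shown, and a match describes the letters of the window, not binding.

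Together the 9 genes held 0.939% to 1.28% of all reads on genes. Their summed level was 11464 CPM (sham, labelled WT) and 12750.3 CPM (sham, labelled TRPA1-KO). On days 7, 10, and 14 after BCAS, the sum was 82.2%, 77.4%, and 87.2% of the sham mean under the label WT and 78.6%, 79.6%, and 86.9% under the label TRPA1-KO. All 6 BCAS libraries thus lay below both sham libraries, and within each label the highest sum was that of day 14, where each day had 1 library. The summed level of 8 striatal neuron markers, given at the end, was also below both sham libraries in all 6 BCAS libraries, and its part in these values was not tested. Of the 9 genes, 8, 9, and 9 lay below their sham mean on these days under the label WT, and 8, 9, and 6 under the label TRPA1-KO.

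**Figure D1:**
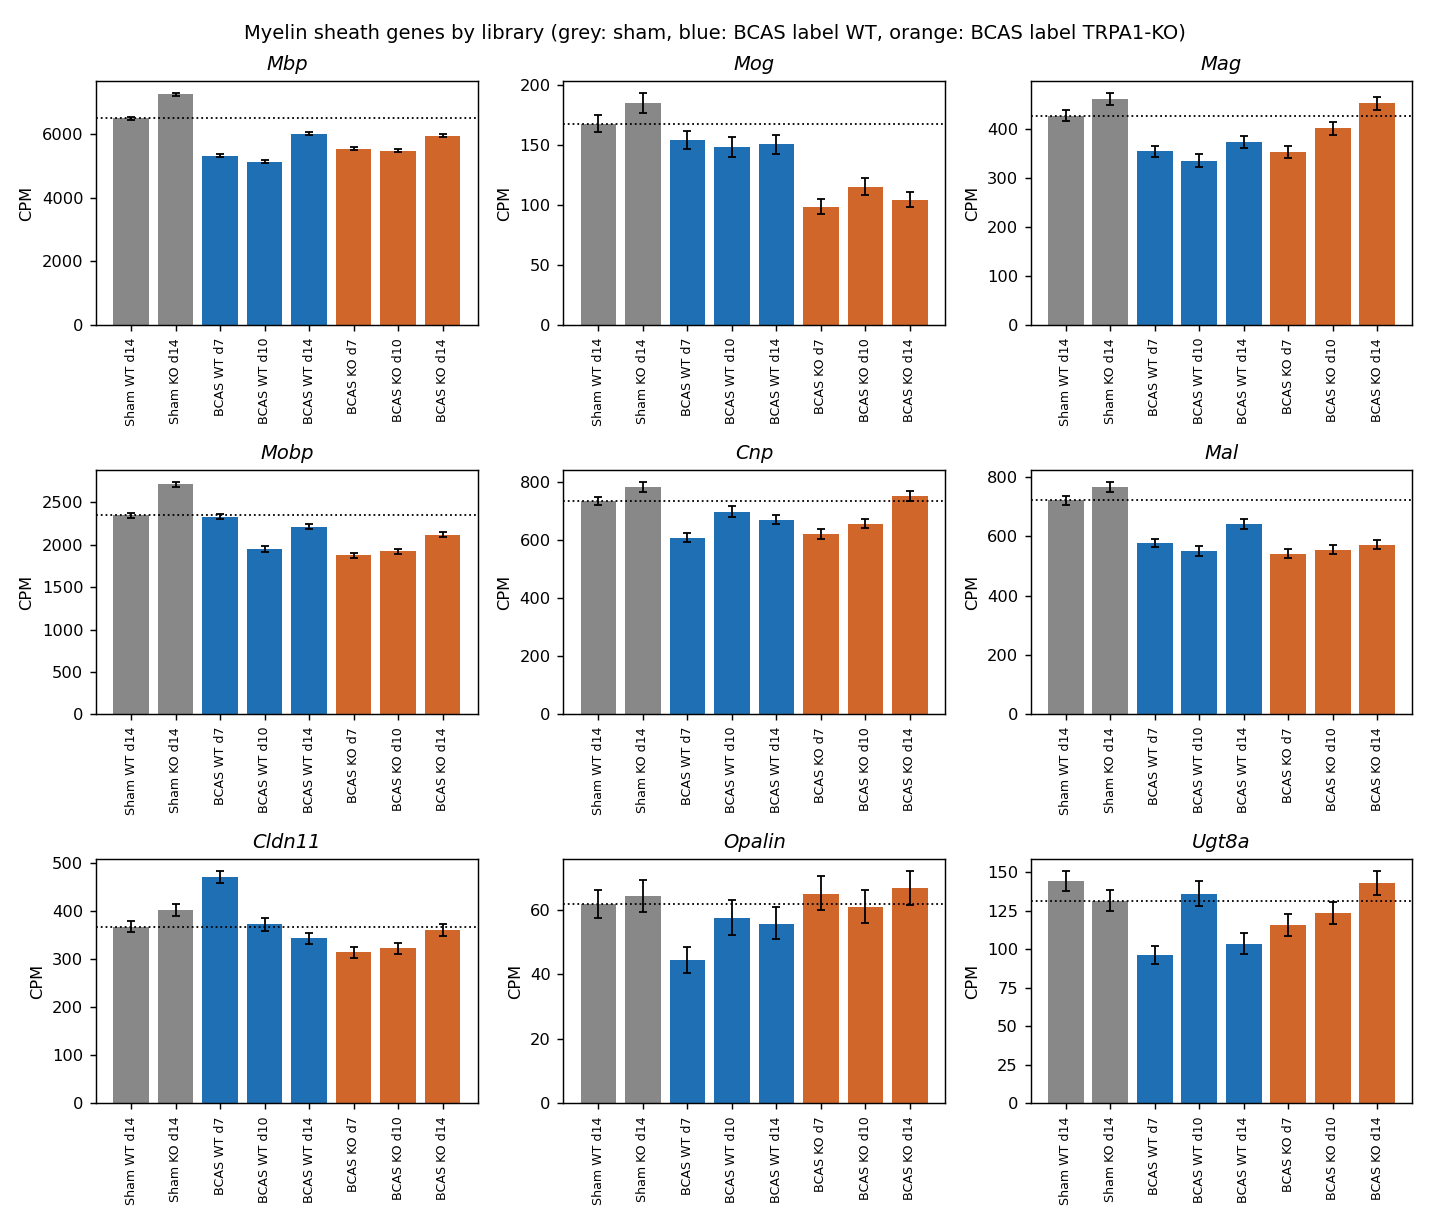
Levels of the 9 myelin sheath genes in each library, in CPM on a linear axis from 0 (grey, sham; blue, BCAS labelled WT; orange, BCAS labelled TRPA1-KO). Error bars are exact 95% counting intervals and the dotted line is the lower of both sham libraries; all 6 BCAS libraries lay below it for *Mbp*, *Mog*, *Mobp*, and *Mal*.

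Levels were compared between genes only per kilobase of exon. Over the 8 libraries, the mean was highest for *Mbp* (696 CPM per kilobase), followed by *Mobp* (319), *Mal* (222), *Cldn11* (197), *Cnp* (189.9), *Mag* (96.8), *Mog* (82.3), *Ugt8a* (27.4), and *Opalin* (20.2). In this order, the ranges of neighbours were apart between *Mbp* and *Mobp*, between *Cnp* and *Mag*, and between *Mog* and *Ugt8a*. For the other 5 neighbouring pairs, the ranges over libraries overlapped. The coefficient of variation over the 8 libraries was 9.06% for *Cnp* and between 11.9% and 14.3% for the other genes except *Mog*, where it was 22.2%. Between the sham libraries, the one labelled TRPA1-KO was higher for 8 of the 9 genes, by 4.06% (*Opalin*) to 15.6% (*Mobp*), and for *Ugt8a* the difference was -8.82%.

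Among the genes of compact myelin, *Mbp* codes for the basic protein that holds the inner faces of the membrane together (chromosome 18, 82475146 to 82585637, plus strand of GRCm38). *Mbp* stood at 6495 and 7246 CPM in the sham libraries labelled WT and TRPA1-KO. After BCAS, it was 5322, 5129, and 6012 CPM on days 7, 10, and 14 under the label WT. In the BCAS libraries labelled TRPA1-KO, it was 5533, 5478, and 5951 CPM. All 6 BCAS values lay below both sham values, and the ranges of both labels overlapped.

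*Mobp* codes for another small basic protein of compact myelin (chromosome 9, 120149707 to 120181484, plus strand). It was 2346 and 2711 CPM in the sham libraries, 2329, 1949, and 2212 CPM after BCAS under the label WT, and 1874, 1921, and 2120 CPM under the label TRPA1-KO. All BCAS values again lay below both sham values, but that of day 7 labelled WT was close to the sham library labelled WT. An exon of *Mobp* overlaps the noncoding gene *Gm38642* on the same strand, so reads there may have been assigned to either.

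*Mal* codes for a proteolipid of membrane rafts rich in glycolipids (chromosome 2, 127633226 to 127656695, minus strand). Its levels were 721 and 767 CPM in the sham libraries, 577, 549.8, and 642 CPM after BCAS under the label WT, and 542, 555, and 571 CPM under the label TRPA1-KO. Every BCAS value was below both sham values, and the highest of the 6 was day 14 labelled WT. *Mal* and *Mbp* had the most similar profiles of any pair of the 9 genes over the 8 libraries (Pearson's r = 0.92).

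*Cnp* codes for a phosphodiesterase that keeps cytoplasmic channels of myelin open (chromosome 11, 100574904 to 100591729, plus strand). It was 735 and 785 CPM in the sham libraries, 609, 698, and 672 CPM after BCAS under the label WT, and 622, 657, and 752 CPM under the label TRPA1-KO. Only the library of day 14 labelled TRPA1-KO lay between both sham values, and the other 5 lay below them. An exon of *Cnp* overlaps *Dnajc7* on the opposite strand, and whether reads were counted by strand is not given in the sources used here.

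*Mag* codes for the adhesion protein on the layer that faces the axon (chromosome 7, 30899176 to 30914873, minus strand). It was 426 and 460.2 CPM in the sham libraries. After BCAS, it was 354, 335, and 373 CPM on days 7, 10, and 14 under the label WT, and 352, 401, and 452 CPM (labelled TRPA1-KO). All 3 values labelled WT were below both sham values, while day 14 labelled TRPA1-KO lay between them.

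*Mog* codes for the glycoprotein on the outermost surface of the sheath, a known autoantigen in demyelinating disease (chromosome 17, 37010743 to 37023398, minus strand). It was 168 CPM (2141 reads) in the sham library labelled WT and 185 CPM (1927 reads) in that labelled TRPA1-KO. After BCAS, *Mog* was 154, 148, and 150.2 CPM on days 7, 10, and 14 under the label WT, and 98.4, 115, and 104 CPM (884, 1077, and 1002 reads) under the label TRPA1-KO. The 3 groups did not overlap, and the 3 libraries labelled TRPA1-KO were the lowest of all 8.

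*Cldn11* codes for the claudin of the tight junctions between myelin layers (chromosome 3, 31149920 to 31164324, plus strand). Levels were 367 and 402 CPM in the sham libraries, 469.8, 372, and 342 CPM after BCAS under the label WT, and 314, 322, and 360.4 CPM under the label TRPA1-KO. Day 7 labelled WT was the highest of the 8 libraries, and all 3 BCAS values labelled TRPA1-KO lay below both sham values.

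*Opalin* codes for a membrane glycoprotein of oligodendrocytes (chromosome 19, 41061710 to 41077113, minus strand). It was 61.7 and 64.2 CPM in the sham libraries, 44.3, 57.3, and 55.6 CPM after BCAS under the label WT, and 64.9, 60.8, and 66.6 CPM under the label TRPA1-KO. The values labelled WT were all below both sham values and below those labelled TRPA1-KO. Across the 8 libraries, *Opalin* ran against *Cldn11* (Pearson's r = -0.68) and *Mog* (-0.36).

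*Ugt8a* codes for the transferase that makes galactosylceramide (chromosome 3, 125865271 to 125938619, minus strand). It was 144 and 131 CPM in the sham libraries, 96.3, 136, and 104 CPM after BCAS under the label WT, and 116, 123, and 143 CPM under the label TRPA1-KO. The groups overlapped in every comparison. Of the 36 pairs of the 9 genes, 31 had a positive correlation over the 8 libraries, with a median r of 0.54, a description in which all points share the library and its scaling.

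**Figure D2:**
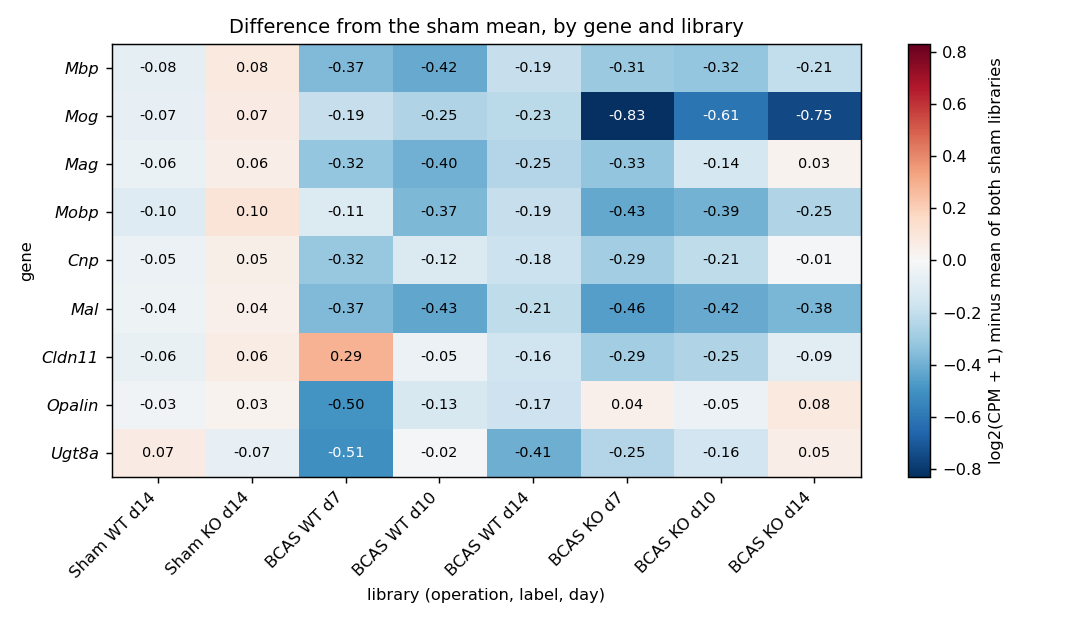
Difference of each gene from the mean of both sham libraries on the log2(CPM + 1) scale, by library (blue, lower; red, higher). The lowest cells are those of *Mog* in the BCAS libraries labelled TRPA1-KO, and *Cldn11* on day 7 labelled WT is the highest.

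The first comparison asks whether the BCAS libraries labelled TRPA1-KO differed from sham in these genes. *Mog* fell, from 176 ± 12.2 CPM in sham (SD, n = 2) to 106 ± 8.41 CPM (n = 3), or -0.73 on the log2 scale (standard error 0.084). Its limma adjusted p was 0.046, and it had the smallest p of the 18123 genes tested. It was the only gene called, which makes 0.00552% of the genes tested. *Mal* was 744 ± 31.9 CPM in sham and 556 ± 14.6 CPM after BCAS (-0.42, limma adjusted p = 1), and *Mobp* was 2528 ± 258 and 1972 ± 130 CPM (-0.36, limma adjusted p = 1). The call of *Mog* was lost without any one of the 5 libraries. With each left out in turn, its log2 fold change was -0.66 to -0.80 with a limma adjusted p of 0.0888 to 0.55, and with only the sham library of the same label it was -0.80 (limma adjusted p = 0.45).

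Of the 9 genes, 8 were lower than sham by the fitted log2 fold change, which ranged from -0.73 to 0.026 with a median of -0.21, against a median of -0.0021 over all genes tested. With an unadjusted limma p under 0.05, 3 were lower (*Mog*, *Mal*, and *Mobp*), beside 1.67% of all genes tested. *Mobp* did not stay under this threshold without the sham library labelled TRPA1-KO or without day 7 or day 10. For 5 genes (*Mbp*, *Mog*, *Mobp*, *Mal*, and *Cldn11*), the 3 BCAS libraries lay below both sham libraries, beside 10.2% of all genes. In exact permutation tests (two-sided), *Mbp*, *Mog*, *Mobp*, and *Mal* each reached p = 0.10, the smallest that 3 against 2 libraries allow. *Opalin*, at 64.1 ± 3.0 CPM after BCAS and 62.9 ± 1.77 CPM in sham, had a log2 fold change of 0.026 (95% interval -0.21 to 0.27).

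In the libraries labelled WT, the same question gave no gene with an adjusted p under 0.05 by limma, 0% of all genes tested, with 988 genes at an unadjusted p under 0.05. On the recovered reads, edgeR called 0 genes and DESeq2 called 24, none of them among the 9. The lowest values were those of *Mal*, at 744 ± 31.9 CPM in sham and 590 ± 47.5 CPM after BCAS (log2 fold change -0.34, standard error 0.096, limma adjusted p = 0.80), *Mbp* (-0.33), *Mag* (-0.32), and *Ugt8a* (-0.31). *Mog* was 150.6 ± 3.14 CPM after BCAS, a log2 fold change of -0.22 (95% interval -0.41 to -0.039, limma adjusted p = 0.89). *Cldn11* was the exception, at 395 ± 66.7 CPM after BCAS against 384 ± 24.4 CPM in sham (0.026, 95% interval -0.25 to 0.30), and without the library of day 7 its value was -0.11.

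Of the 9 genes, 8 were lower, with a median log2 fold change of -0.27 against -0.0012 over all genes. An unadjusted limma p under 0.05 was found for 5 of them, all lower (*Mog*, *Mag*, *Mal*, *Opalin*, and *Ugt8a*), beside 3.01% of all genes tested. The BCAS libraries lay below both sham libraries for 7 genes, all but *Cldn11* and *Ugt8a*, beside 11% of all genes. This count of 5 became 1 without the sham library labelled TRPA1-KO, where the count over all genes tested fell from 545 to 183 lower genes, and 3 without that labelled WT, where it was 473. Without day 7 labelled WT, *Opalin* was at -0.15 in place of -0.27, and neither it nor *Ugt8a* (-0.21) stayed under the threshold. *Mog*, *Mag*, and *Mal* had an exact permutation p of 0.10, the smallest possible. Both comparisons share the sham libraries, so the values of a gene in one are not independent of those in the other.

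**Figure D3:**
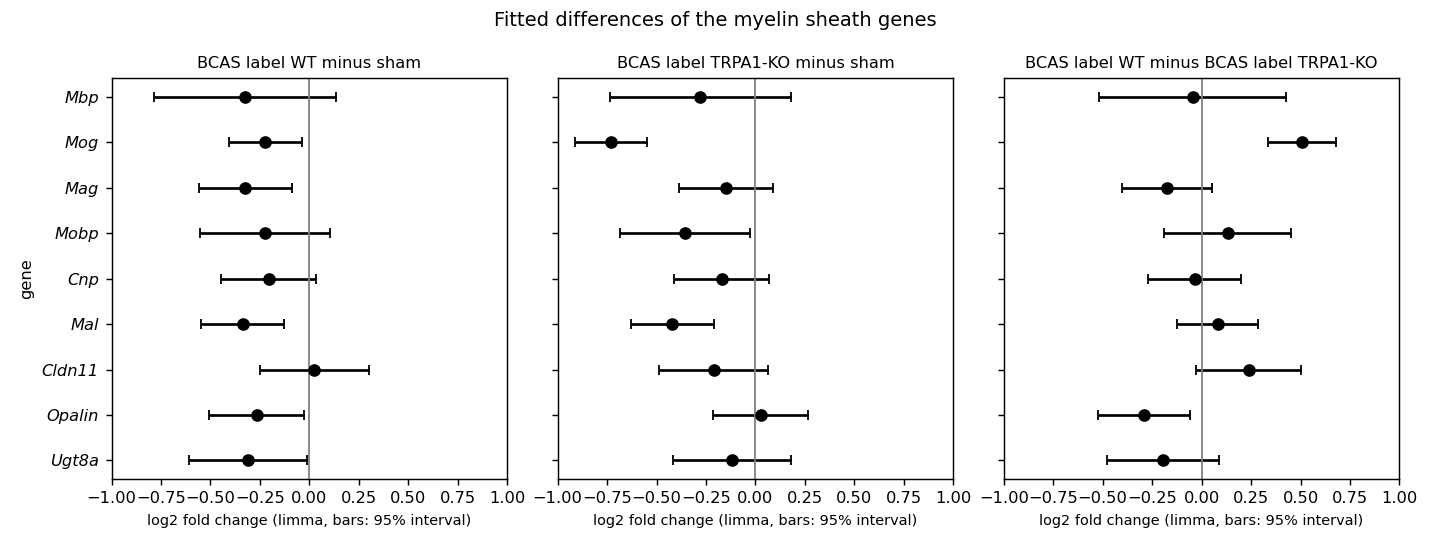
Fitted log2 fold changes of the 9 genes with 95% intervals (limma, log2(CPM + 1)) for BCAS labelled WT against sham, BCAS labelled TRPA1-KO against sham, and both BCAS groups against each other. *Mog* is at -0.73 in the middle panel and at 0.51 in the right panel. The intervals of *Mbp*, the most abundant gene, are the widest in all 3 panels. Limma sets them partly from the spread of other genes of similar level. On the same scale, the SD of *Mbp* itself was 0.11 in sham, 0.12 after BCAS labelled WT, and 0.065 after BCAS labelled TRPA1-KO. For *Ugt8a*, with narrower intervals, it was 0.093, 0.26, and 0.155.

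The study's main RNA comparison sets the BCAS libraries of both labels against each other. *Mog* was 150.6 ± 3.14 CPM under the label WT and 106 ± 8.41 CPM under the label TRPA1-KO (n = 3 each), a log2 difference of 0.51 (standard error 0.077, 95% interval 0.34 to 0.68). It was higher in 3 of 3 libraries, but its limma adjusted p was 0.16, over the threshold. *Opalin* went the other way, at 52.4 ± 7.09 CPM under the label WT and 64.1 ± 3.0 CPM under the label TRPA1-KO (-0.29, 95% interval -0.52 to -0.061, limma adjusted p = 0.98). These were the only 2 of the 9 genes with an unadjusted limma p under 0.05, beside 4.2% of all genes tested, and the only 2 whose groups did not overlap, beside 9.21%. Without day 7 labelled WT, *Opalin* was at -0.18, and without it or without day 7 or day 14 labelled TRPA1-KO its unadjusted limma p was no longer under 0.05. Their exact permutation p was 0.10, the smallest that 3 against 3 allow.

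Limma called 3 genes in this comparison, 0.0166% of those tested, and 0 of the 9. On the recovered reads, edgeR called 2 of all genes and 0 of the 9, while DESeq2 called 17 of all genes and 1 of the 9, *Mog* (DESeq2 adjusted p = 0.00075). For *Mbp*, the log2 difference was -0.045 (95% interval -0.52 to 0.43), for *Cnp* -0.035 (-0.27 to 0.20), for *Mal* 0.082 (-0.12 to 0.29), and for *Mobp* 0.13 (-0.19 to 0.45). For *Cldn11* it was 0.24 (-0.028 to 0.50), and for *Ugt8a* and *Mag* -0.20 (-0.48 to 0.090) and -0.17 (-0.40 to 0.052). Single libraries moved several of these values by more than 1.5 times. *Cldn11* was 0.11 without day 7 labelled WT, *Ugt8a* -0.34 without day 10 and -0.096 without day 7 labelled WT, and *Mag* -0.27 without day 7 and -0.086 without day 14 labelled TRPA1-KO. *Mobp* ranged from 0.077 to 0.20, *Mal* from 0.019 to 0.13, *Mbp* from -0.11 to 0.0016, and *Cnp* from -0.093 to 0.043. The median of the 9 was -0.035, against 0.0010 over all genes. Each of the 7 intervals over all 6 libraries includes 0, which does not show that the labels were alike.

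As a measure that does not depend on library scaling, the share of *Mog* among the reads of all 9 genes was taken. It uses the same reads as the tests above, where *Mog* had the smallest p under the label TRPA1-KO against sham. A separation of these libraries is thus no separate support. The share was 1.46% and 1.45% in the sham libraries and 1.55%, 1.58%, and 1.42% on days 7, 10, and 14 after BCAS under the label WT. Under the label TRPA1-KO, it was 1.03% (exact 95% binomial interval 0.967% to 1.10%), 1.19% (1.12% to 1.27%), and 0.991% (0.931% to 1.05%). The upper bounds of these 3 intervals lay below the lower bounds of the other 5, the lowest of which was 1.35%. These intervals are for counting error alone and hold no spread between libraries. PCR copies of a fragment are counted as separate reads, so the intervals may be too narrow even for counting error.

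**Figure D4:**
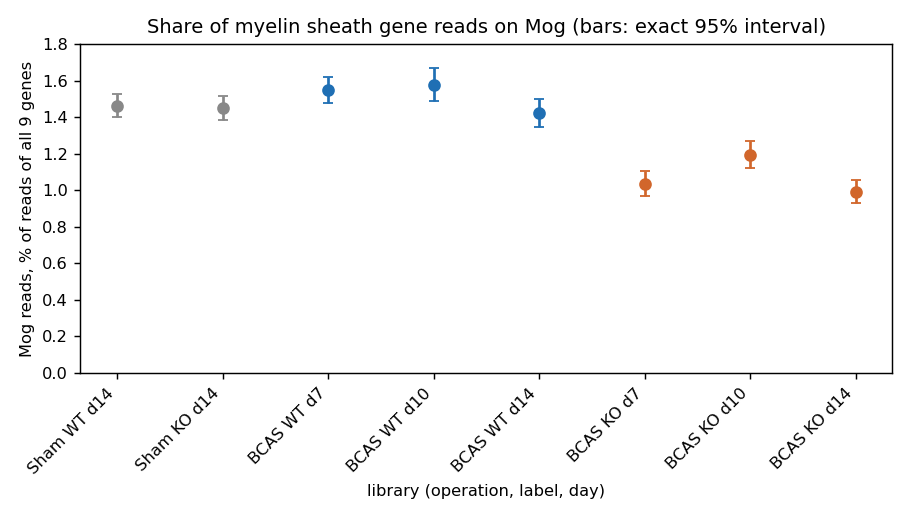
Share of the reads of the 9 myelin sheath genes that fell on *Mog*, in percent, by library (bars, exact 95% binomial intervals for counting error). The 3 BCAS libraries labelled TRPA1-KO sit between 0.991% and 1.19%, and the other 5 between 1.42% and 1.58%.

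Over the BCAS libraries of both labels, all 9 genes were lower than sham, with log2 fold changes from -0.48 (*Mog*) to -0.093 (*Cldn11*) and a median of -0.24, against -0.0013 over all genes. *Mog* was 128 ± 25.2 CPM over the 6 BCAS libraries (limma adjusted p = 0.51) and *Mal* was 573 ± 36.5 CPM (-0.38, limma adjusted p = 1.0). An unadjusted limma p under 0.05 was found for 3 genes (*Mog*, *Mal*, and *Mag*), beside 2.32% of all genes lower at that threshold, and *Mag* did not stay under it without either sham library, day 10 labelled WT, or day 7 or day 10 labelled TRPA1-KO. All 6 BCAS libraries lay below both sham libraries for 4 genes (*Mbp*, *Mog*, *Mobp*, and *Mal*), beside 3.59% of all genes. For *Mbp*, *Mobp*, and *Mal*, the exact permutation p was 0.036, the smallest that 6 against 2 allow, and for *Mog* it was 0.11. By limma, no gene had an adjusted p under 0.05, 0% of those tested, with 666 at an unadjusted p under 0.05. On the reads, edgeR also called 0 genes, and DESeq2 called 9, among them *Mog* (DESeq2 adjusted p = 0.0014) and *Mal* (DESeq2 adjusted p = 0.0039).

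The other myelin genes, a list of 35 that covers junction, adhesion, cytoskeletal, and metabolic genes of the oligodendrocyte, were read beside the 9. In the libraries labelled WT against sham, 29 of the 35 were lower, with a median log2 fold change of -0.22, and all 12 genes with an unadjusted limma p under 0.05 were lower. Against sham in the libraries labelled TRPA1-KO, 28 were lower (median -0.13), and all 3 genes under that threshold were lower. Over both labels the median was -0.17, with 12 genes under the threshold, all lower. Their summed level was 11545 to 12485 CPM in sham and 82.5% to 95.8% of the sham mean after BCAS.

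By smallest p in the libraries labelled WT, these genes were *Qdpr*, a dihydropteridine reductase (log2 fold change -0.45), *Ermn*, a cytoskeletal protein of late oligodendrocytes (-0.40), *Car2*, carbonic anhydrase (-0.38), *Tmem63a*, an ion channel (-0.32), and *Plekhb1* (-0.39), with limma adjusted p from 0.73 to 0.81. *Ermn* was also lower in the libraries labelled TRPA1-KO (-0.25), with *Gsn*, the actin-severing protein gelsolin (-0.21), and *Aspa*, the aspartoacylase that cleaves N-acetylaspartate (-0.24, limma adjusted p = 1 for each). *Cryab*, a small heat shock protein, was at -0.26 over both labels (limma adjusted p = 1.0). Between the labels after BCAS, 6 of the list were lower and 3 higher under the label WT at an unadjusted p under 0.05. *Gpr37*, a receptor (-0.30), *Qdpr* (-0.28), and *Car2* (-0.22) were among those lower, and *Gsn* (0.28) was among those higher (limma adjusted p = 0.98 for each).

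The genes of galactolipid metabolism, 12 in all and the list closest to *Ugt8a*, had medians near 0 in every comparison (-0.054 under the label TRPA1-KO and -0.060 under the label WT against sham, -0.041 over both, and 0.065 between labels). The list joins genes of synthesis and of lysosomal breakdown, so a median mixes both. Of the 12, 9 were lower than sham under the label TRPA1-KO, 8 under the label WT, and 9 over both. The lowest value in each of these comparisons was that of *Gal3st1*, with an unadjusted limma p over 0.05 in each. It was -0.35 under the label TRPA1-KO, -0.26 under the label WT, and -0.30 over both. *Fa2h*, the hydroxylase that acts on the fatty acids of myelin lipids, was lower at an unadjusted p under 0.05 with both labels (-0.21 under the label TRPA1-KO, limma adjusted p = 1, and -0.23 under the label WT, limma adjusted p = 0.89). *Gm2a*, a lysosomal activator of ganglioside breakdown, was higher under the label WT against sham (0.28, limma adjusted p = 0.88) and against the label TRPA1-KO (0.24, limma adjusted p = 0.98).

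Of the 15 transcription factors of the oligodendrocyte lineage, *Myrf*, which drives myelin genes, was 134 and 168 CPM in the sham libraries and ranged from 106 to 146 CPM after BCAS, with day 14 labelled TRPA1-KO between both sham values (-0.38 under the label WT, limma adjusted p = 0.87, and -0.30 over both labels, limma adjusted p = 1.0). *Id4*, an inhibitor of differentiation, was at -0.32 under the label WT against sham (limma adjusted p = 0.91) and at -0.16 between the labels (limma adjusted p = 0.98). Under the label TRPA1-KO, no gene of this list had an unadjusted limma p under 0.05 against sham, and the smallest was that of *Olig2* (-0.28, limma adjusted p = 1). The list's medians were -0.13 under the label TRPA1-KO, -0.14 under the label WT, and -0.16 over both, and 0.033 between labels. Its summed level was 957 to 1098 CPM in sham and 87.4% to 96.8% of the sham mean after BCAS.

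Markers of other cells also differed between the libraries, and their part in the values above was not tested. The 8 markers of striatal neurons, which lie next to the corpus callosum, summed to 1641 and 2230 CPM in the sham libraries. They summed to 845, 1222, and 1102 CPM after BCAS under the label WT and to 937, 1493, and 1480 CPM under the label TRPA1-KO, so that all 6 lay below both sham libraries, at 43.6% to 77.1% of their mean. All 8 had an unadjusted limma p under 0.05 and were lower over both labels, with a median log2 fold change of -0.75, a larger shift than that of the 9 myelin genes. Against sham, 7 of them were lower at that threshold under the label TRPA1-KO (median -0.56) and 8 under the label WT (median -0.88).

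The 8 markers of cortical excitatory neurons summed to 1720 to 1922 CPM in sham and to 1599 to 2092 CPM after BCAS, and the ranges overlapped. Those of microglia summed to 358 and 364 CPM in sham, to 1031, 595, and 347 CPM on days 7, 10, and 14 under the label WT, and to 334, 349, and 472 CPM under the label TRPA1-KO. Astrocyte markers summed to 4481 to 4696 CPM in sham, 4588 to 6024 CPM under the label WT, and 4267 to 5527 CPM under the label TRPA1-KO. The highest microglial and astrocytic sums were thus those of day 7 labelled WT, the library in which *Cldn11* was highest and *Opalin* and *Ugt8a* were lowest. Markers of oligodendrocyte precursors summed to 508 to 509 CPM in sham, 476 to 584 CPM under the label WT, and 422 to 516 CPM under the label TRPA1-KO, and 4 of the 8 were higher under the label WT than under the label TRPA1-KO at an unadjusted limma p under 0.05. Endothelial markers summed to 285 to 323 CPM in sham and 287 to 327 CPM after BCAS. Those of ependyma and choroid plexus summed to 28.4 to 47.0 CPM in all libraries, with *Ttr* and *Kcne2* at 0 in at least 1 of them.

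**Figure D5:**
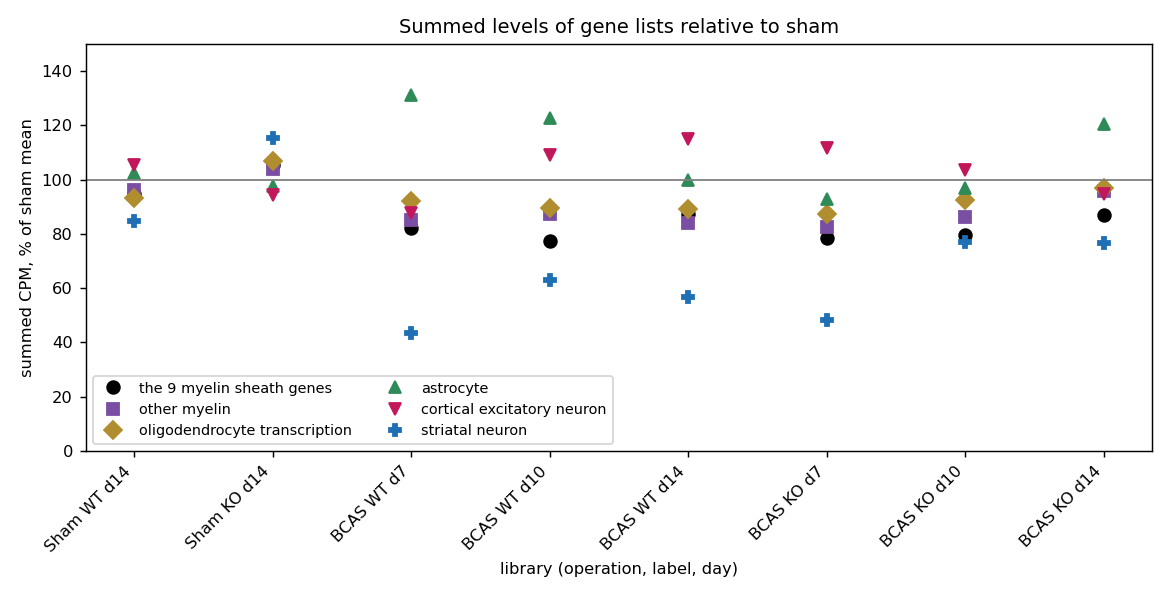
Summed level of 6 gene lists in each library, in percent of the mean of both sham libraries (grey line, 100%). The 9 myelin sheath genes (black) lie between 77.4% and 87.2% after BCAS, and the striatal neuron markers (blue crosses) between 43.6% and 77.1%.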

How the data were processed

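Polyadenylated RNA of the mouse corpus callosum was sequenced in 8 libraries. The authors mapped reads to GRCm38 (mm10) with HISAT2, counted them per gene with featureCounts of the Subread package, and normalized them with edgeR. The annotation, the strand setting, and any gene filter are not given in the sources used here. The deposited signal is CPM, read counts scaled to the effective library size and not log-transformed, with sums of 966202 to 1022161 per library. All values (100%, tolerance 0.01) were whole multiples of 1 read, which gave 7896071 to 12952093 reads per library. Nothing in the labels says that a library is 1 animal or that days are replicates, so p-values measure the spread between these libraries.

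Tests used limma 3.58.1 in R 4.3.3 (lmFit, eBayes with a trend, two-sided, Benjamini-Hochberg adjustment) on log2(CPM + 1), over the 18123 of 25239 genes whose mean reached 0.1 CPM, and all 9 members passed this filter. The scale understates changes of low genes. Sham comparisons used all 8 libraries in 1 fit and the comparison between labels the 6 BCAS libraries. The unit had been planned as normalized CPM, and the planned test was kept. Exact permutation tests were run for each member. edgeR 4.0.16 (quasi-likelihood) and DESeq2 1.42.0 on recovered reads, pseudocount 0.1, other filters, robust variance, equal library medians, day as a block, and each library left out were alternatives. The fits were tested on simulated data.

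The members and gene lists were chosen with earlier results of these data known. Named from each related list were up to 5 genes per comparison by smallest limma p under 0.05, or the 1 with the smallest p if none passed, and by likeness to the mean profile of the members the 5 highest and 3 lowest genes. Positions and exon lengths come from GENCODE M21, promoters from RefSeq. Protein sequences were not used here, and not every gene that this rule names is reported here.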

Additional observations from a re-analysis of the deposited data

Results flagged for a closer look

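In each gene, the 6 BCAS libraries were examined for a single value far from the others, which made 9 groups, and 2 were found. Chance alone gives about 1 in 20 groups. *Mal* was 642 CPM on day 14 labelled WT, above the other 5 libraries by 0.65 of the whole range, and *Cldn11* was 469.8 CPM on day 7 labelled WT, above the others by 0.63 of the range.

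Both BCAS groups were set against each other directly, with no sham value in the test, and 2 of the 9 genes had an unadjusted limma p under 0.05, beside 4.2% of all genes tested. For *Mog*, the value under the label WT was higher by 0.51 on the log2 scale (limma adjusted p = 0.16), and it was higher in 3 of 3 libraries. For *Opalin*, it was -0.29 (limma adjusted p = 0.98), and it was lower in 3 of 3 libraries. Neither passed the adjustment over all genes.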

How the results depend on the processing

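Over the alternatives listed under the methods, 156 of 177 values of the counts and medians of the 9 genes stayed within their limit. A count of 3 that became 2 or 4 was within this limit. For single genes, the direction and the side of the adjusted p threshold of 0.05 stayed in 509 of 531 values. In the main fits, only *Mog* in BCAS labelled TRPA1-KO against sham had passed that threshold, so this share says little about stability. All 9 values that fell back over the threshold were of this *Mog* call. A move across an unadjusted p of 0.05, such as that of *Mobp*, was not counted here. The number of genes with an adjusted p under 0.05 in BCAS labelled TRPA1-KO against sham (1, *Mog*) was 0 without a filter (*Mog* limma adjusted p = 0.12), with equal library medians (*Mog* limma adjusted p = 0.055), with the day as a replicate block (log2 fold change -0.74, limma adjusted p = 0.64), and with the sham library of the same label, 2 with DESeq2 (*Mog* and *Mal*, of 4 called over all genes), and 0 to 0 with each of the 5 libraries left out. For this, leaving out a sham library assumes that the lone sham library varies like the others. For BCAS labelled WT against sham, the number with an unadjusted p under 0.05 (5) was 0 with the replicate block, 1 with the sham library of the same label, and 1 to 4 with a library left out. Between labels, DESeq2 called 1 gene of the 9 in place of 0 (17 over all genes, against 3 by limma), and the number with an unadjusted p under 0.05 (2) was 1 to 3 with a library left out, with 1 in the absence of day 7 labelled WT or day 14 labelled TRPA1-KO. For both labels against sham, that number (3) was 5 with robust variance, 5 with edgeR, and 6 with DESeq2. Over all genes, it was 666 in the main fit and 679, 705, and 449 with these. At an adjusted p under 0.05, DESeq2 called 2 of the 9 in place of 0 (9 over all genes, against 0 by limma). For BCAS labelled WT against sham, the number over all genes at an unadjusted p under 0.05 was 988, and 509 with the replicate block. Between labels, it was 761, and 325 to 1846 with a library left out.

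Directions turned only for values near 0. *Opalin* under the label TRPA1-KO against sham (0.026) was -0.0027 with the sham library of the same label and -0.0027 to 0.063 with a library left out, below 0 without the sham library labelled WT (-0.0027) and without day 14 labelled TRPA1-KO (-0.0022). *Cldn11* under the label WT against sham (0.026) was -0.0095 with the replicate block and -0.11 to 0.12 with a library left out, below 0 without the sham library labelled WT (-0.039) and without day 7 labelled WT (-0.11). Between labels, *Cnp* (-0.035) was -0.093 to 0.043 with a library left out, above 0 without day 7 labelled WT (0.021) and without day 14 labelled TRPA1-KO (0.043), and *Mbp* (-0.045) was 0.0016 without day 10 labelled WT. The cause was not tested for any of these. The correlation of deviations of the same day between the labels was -0.10, 0.0051, and -0.26 on days 7, 10, and 14 over 10744 genes. No day was replicated within a label, so a shift shared by a day cannot be told apart from differences between libraries. These values therefore do not decide whether the days pair the labels. The block changed no other call at an adjusted p under 0.05. At an unadjusted p it also lost *Mobp* in BCAS labelled TRPA1-KO against sham and *Mag* in both labels against sham.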

Other observations

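Among 10735 genes whose mean was 10 CPM or more, those whose levels followed the mean profile of the 9 myelin genes most closely over the 8 libraries were *Golga7* (Pearson's r = 0.97, range 91.8 to 113 CPM), *Bcas1os2* (0.97, 31.8 to 49.5 CPM), *Mon2* (0.96, 101 to 113 CPM), *Mettl3* (0.95, 23.7 to 29.6 CPM), and *Zbtb10* (0.94, 12.5 to 17.3 CPM). *Golga7* codes for a subunit of a palmitoyltransferase and *Mettl3* for the RNA adenosine methyltransferase. Running most against it were *Tshz2* (-0.97, 29.0 to 73.7 CPM), *Cd200* (-0.97, 62.0 to 79.8 CPM), and *Higd2a* (-0.95, 29.6 to 39.5 CPM). The 8 striatal neuron markers also followed this profile, with r from 0.76 (*Penk*) to 0.88 (*Pde10a*, rank 38). For the 8 cortical excitatory neuron markers, r was between -0.76 (*Neurod2*) and -0.0010 (*Neurod6*). The part of neighbouring tissue in the profile was not tested. All points share the library and its scaling, and with so many genes and 8 points such values are a description only.

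The genes beside *Mog* were examined after its values had been seen. Within 250000 bases on either side, 11 genes were tested, and their median log2 fold change in BCAS labelled TRPA1-KO against sham was 0.0088. Of these, *Rnf39* (0.65) and *H2-M5* (0.70) had an unadjusted limma p under 0.05, both higher, and between the labels after BCAS none of the 11 did by limma.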
